A study of Homo sapiens with 2 samples.

Results

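The genes described are 10 genes of the contractile and actin cytoskeleton programme that is known from smooth muscle: ACTA2, TAGLN, CNN1, CNN2, MYL9, TPM1, TPM2, CALD1 and MYH9, with SRF, the transcription factor for which they are known as targets. They were chosen by name, with earlier results of these data known. A probe set was taken when its only gene symbol in the platform annotation was one of the 10. These genes were 10 of 19775 genes with such a probe set, and they had 34 probe sets, all of which are reported on both arrays. The samples were 2 cultures labelled as U87, an established human glioblastoma line, each transfected with a lipid reagent. The culture labelled as control received a non-target siRNA. The other received one directed at the transcript of FOXM1, a forkhead protein that drives genes of cell division. Total RNA taken 48 hours after transfection was hybridised to 1 array for each group, called here the control-labelled array and the siFOXM1-labelled array. The study was set up to compare transcripts after transient FOXM1 knockdown. A group of 1 array gives neither an SD between samples nor a p-value, and every difference below lies between these 2 arrays as labelled, without a replicate check.

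Serum response factor (SRF) binds a short A/T-rich element called the CArG box. It works with 2 kinds of partner, the actin-sensing myocardin-related factors, which are tied to contractile and cytoskeletal genes, and the ternary complex factors of the ELK family, which are tied to the immediate early genes. Its contractile targets encode actin, the myosin that pulls on it, and the tropomyosins, calponins and caldesmon that line the actin filament. In smooth muscle these proteins generate force, and in other cells, glioma lines and fibroblasts included, many of them build stress fibres.

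Promoter sequences were looked up to show which of the 10 genes hold a CArG box close to an annotated start. Windows from 250 bases before to 50 bases after a RefSeq start (GRCh38.p14) were at hand for 8 of the 10 genes, 14 windows in all; TAGLN and MYL9 had none. The search covered the CArG box, a pattern of 10 bases that is symmetric, so that a match on one strand is a match on the other, and a one-off CArG box with a single G or C in its core of 6 A or T bases. Of 35116 windows of the same length over all genes, 1.29% held a CArG box, 0.0313% held at least 2, and 6.94% held a one-off box, 0.567% at least 2. SRF and CNN2 held a CArG box, ACTA2 and CALD1 a one-off box, and CNN1, TPM1, TPM2 and MYH9 neither. The 150 bases before the start are printed for SRF, CNN2 and ACTA2, the 3 genes that had a CArG box or a pair of one-off boxes, with the matches in capitals. The stretches are chr6:43171119-43171268 (plus strand) for SRF, chr19:1026458-1026607 (plus strand) for CNN2 and chr10:88952774-88952923 (minus strand) for ACTA2, each written 5′ to 3′ towards the start.
SRF: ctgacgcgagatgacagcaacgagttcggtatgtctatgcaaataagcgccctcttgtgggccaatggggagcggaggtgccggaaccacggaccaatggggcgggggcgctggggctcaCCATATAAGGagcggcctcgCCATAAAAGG
CNN2: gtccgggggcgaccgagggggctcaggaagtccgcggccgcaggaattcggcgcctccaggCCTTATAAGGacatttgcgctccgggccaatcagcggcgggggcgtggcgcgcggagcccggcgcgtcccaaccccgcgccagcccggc
ACTA2: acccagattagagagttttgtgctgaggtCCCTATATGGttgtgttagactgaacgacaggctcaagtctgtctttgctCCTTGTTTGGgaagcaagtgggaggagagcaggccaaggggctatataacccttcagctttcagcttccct
SRF had 2 CArG boxes, at bases -30 to -21 and -10 to -1 before its start, and its other window had none. CNN2 had 1 at -89 to -80. The ACTA2 stretch lies before the second of its 2 annotated starts, with one-off boxes at -121 to -112 and -71 to -62, and the window at its other start had neither kind. CALD1 had a one-off box at -26 to -17 of 1 of its 4 windows. These are matches of letters in a short window and no record of binding.

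Of the 10 genes, 6 were at least 2-fold higher on the siFOXM1-labelled array and none was at least 2-fold lower. The 6 were MYL9, TPM1, TPM2, MYH9, CALD1 and ACTA2, between 5.07-fold and 2.29-fold. CNN2 was 1.91-fold higher, SRF was 1.81-fold lower, and TAGLN and CNN1, the other genes of the group best known as smooth muscle markers, lay near or below background. Among the 13865 detected genes, 16.0% were higher and 15.4% lower by 2-fold or more. Of the 19 probe sets of the group above background on both arrays, 15 passed 2-fold on the higher side and none on the lower, beside 14.7% and 13.4% of all such probe sets, 20736 in number. A 4-fold or larger difference in the higher direction was found for 3 of the 10 genes (MYL9, TPM1 and TPM2) and for 6.12% of detected genes. The 8 genes above background on both arrays had a median log2 difference of 1.57, beside -0.03 for all 11395 such genes. Because the 10 genes were chosen with earlier results of these data known, these contrasts with all genes are descriptions and no independent test. Differences are log2 signal on the siFOXM1-labelled array minus that on the control-labelled array. Background was set for each array by a floor. It was the 90th percentile over 135 olfactory receptor probe sets, whose genes are read as silent in such cells, and came to 60.8 on the control-labelled array and 77.7 on the other. A gene was represented by its brightest probe set and counted as detected if that passed the floor of either array. With the hybridisation controls of both arrays set equal, the count became 5 higher and 1 lower: ACTA2 fell under 2-fold and SRF passed it.

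Facts of the whole arrays that touch these values are few. FOXM1 itself read 1520 on the control-labelled array and 1343 on the other, so the target transcript differed by only 1.13-fold. CDKN2A, which U87 cells are known to have lost by deletion, read 3467 and 421 in its brightest probe set. What the siRNA did and how the cells of the 2 arrays differed otherwise cannot be told apart here. The ratio of 3′ to 5′ signal of the ACTB control, a sign of RNA and labelling quality, was 6.79 on the control-labelled and 4.21 on the siFOXM1-labelled array. For GAPDH it was 1.26 and 1.09. Its part in the differences was not tested. Probe sets of the same gene gave the only error at hand: where a gene had 2 or more probe sets above both floors (5476 genes), their log2 differences had a pooled SD of 0.50, a spread within the arrays and not between samples.

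**Figure D1:**
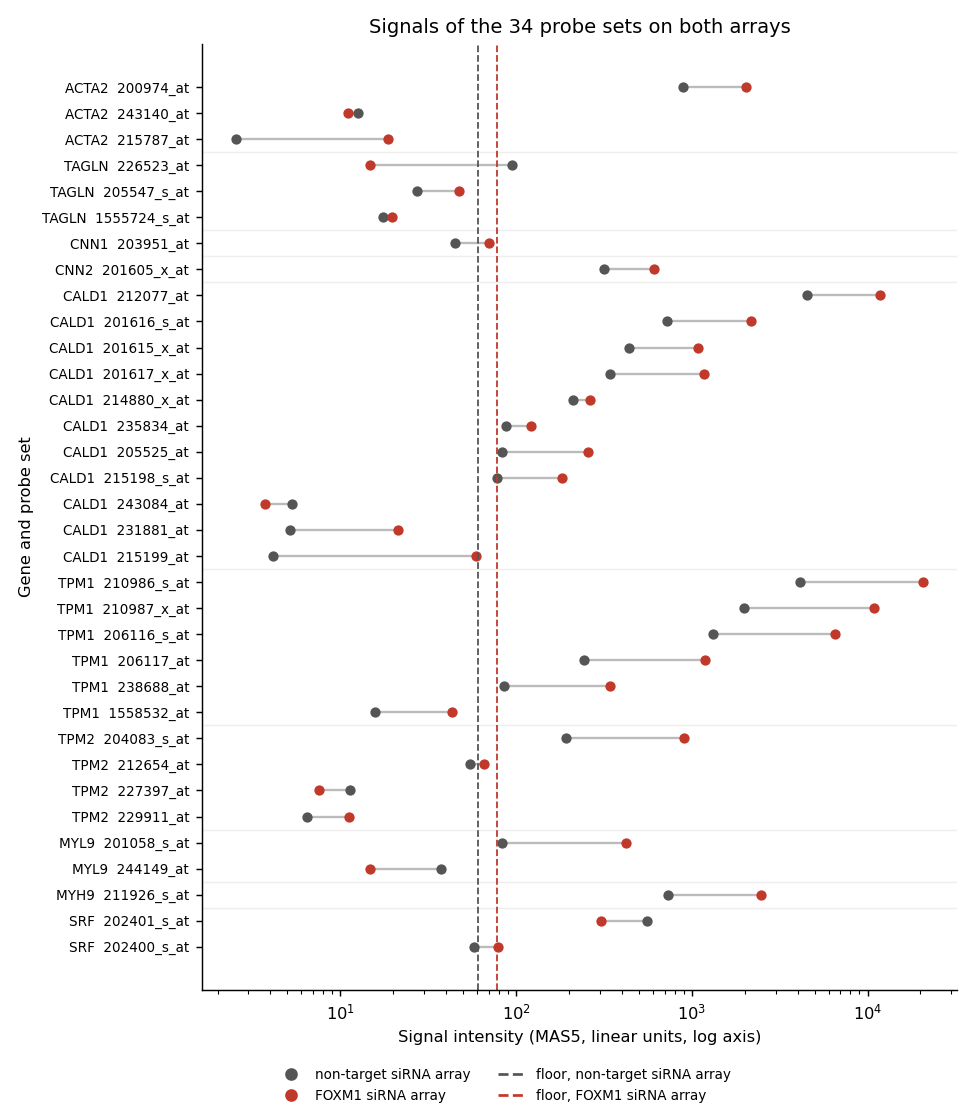
Signal intensity (linear MAS5 units on a log axis) of the 34 probe sets of the 10 genes, with grey points for the control-labelled array, red points for the siFOXM1-labelled array, and dashed lines for the 2 floors of 60.8 and 77.7. The 5 probe sets of TPM1 right of the floors are shifted by similar amounts, whereas all TAGLN and CNN1 points lie left of the floor of their array except 1 TAGLN point at 95.0.

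The tropomyosins, coiled-coil proteins that run along the actin filament and set which myosins can reach it, had among the largest differences of the group. TPM1 read 4153 on the control-labelled array and 20718 on the siFOXM1-labelled array in its brightest probe set, 210986_s_at, a log2 difference of 2.32 or 4.99-fold. Its other probe sets above both floors read 1970 and 10887 (210987_x_at), 1323 and 6569 (206116_s_at), 244 and 1185 (206117_at), and 85.5 and 341 (238688_at), each pair in the order control-labelled, siFOXM1-labelled. These 5 probe sets ran from 1.998 to 2.47 with an SD of 0.17, a narrower spread than the 0.50 over all genes, although probe sets of 1 gene share the transcript and the RNA. The sixth, 1558532_at, read 15.8 and 43.0, below the floor on both arrays. TPM1 ranked 671st from the highest among 13449 genes that could be given a fold.

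TPM2 read 192 and 902 in its brightest probe set, 204083_s_at, a log2 difference of 2.23 or 4.68-fold, close to that of TPM1. It was the only TPM2 probe set above a floor. Of the other 3, 212654_at read 54.8 and 65.9, 227397_at 11.3 and 7.52, and 229911_at 6.46 and 11.1, so the TPM2 value rests on 1 probe set, of a kind (_s_at) whose probes can match several transcripts. TPM4, a tropomyosin of non-muscle cells, was fixed in a list of other smooth muscle genes and gave 1.79 in its brightest probe set, with 3 probe sets between 1.60 and 1.79. All 3 measured tropomyosin genes were thus more than 3-fold higher on the siFOXM1-labelled array under the deposited scaling, TPM4 at 3.46-fold.

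Caldesmon, CALD1, binds actin and tropomyosin and restrains myosin. Its 11 probe sets gave the widest view of a single gene. The brightest, 212077_at, read 4508 on the control-labelled array and 11749 on the other, a log2 difference of 1.38 or 2.61-fold. All 8 probe sets above both floors were higher on the siFOXM1-labelled array, by 0.32 to 1.78 on the log2 scale (median 1.34, SD 0.54), and 6 of the 8 by at least 2-fold. The 2 below 2-fold were 214880_x_at, which read 211 and 263, and 235834_at, which read 88.1 and 122. The other 5 of those 8 were 201616_s_at at 720 and 2176, 201615_x_at at 441 and 1088, 201617_x_at at 343 and 1176, 205525_at at 82.9 and 258, and 215198_s_at at 77.5 and 182. With the hybridisation controls set equal, 201615_x_at gave 0.9975 and 215198_s_at 0.93, both under 2-fold, and 214880_x_at gave 0.01. With a floor 2 times as high the difference of 215198_s_at is at least 0.58. CALD1 is known to have a long smooth muscle form and a short form of other cells, and the files do not say which form a probe set reads. The 3 probe sets below both floors were 215199_at (4.13 and 59.2), 231881_at (5.18 and 21.4) and 243084_at (5.33 and 3.70).

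The myosin genes held differences as large as those of the tropomyosins and a contrast within the family. MYL9, the regulatory light chain of smooth muscle and non-muscle myosin II, read 83.0 and 421 in probe set 201058_s_at, a log2 difference of 2.34 or 5.07-fold, which ranked 651st of 13449. The lower of these signals lies only a little above its floor of 60.8, and with a floor 2 times as high the difference is at least 1.79. The other MYL9 probe set, 244149_at, read 37.2 and 14.8, below both floors. MYH9, the heavy chain of non-muscle myosin IIA, read 736 and 2486 in its single probe set, a log2 difference of 1.76 or 3.38-fold, and ranked 1034th.

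MYH10, the heavy chain of non-muscle myosin IIB and a paralogue of MYH9, went the other way. It read 10087 on the control-labelled array and 591 on the other, 17.1-fold lower (log2 difference -4.09), and the second of its 2 probe sets gave -4.06. It was the 33rd lowest of 13449 genes, and it lay between -4.40 and -3.98 under all 5 scalings. The third non-muscle heavy chain, MYH14, gave 0.60 in its brightest probe set and -0.39 in another above both floors. MYH11, the heavy chain that defines smooth muscle, read 19.7 and 75.6, below both floors. The light chains MYL12A and MYL12B, the closely related regulatory light chains, were 6.40-fold and 2.82-fold higher, and the other probe set of MYL12A above both floors gave 1.70. MYLK, the kinase that switches myosin on by phosphorylating its regulatory light chain, was 6.96-fold higher (422 and 2936), and its other probe set above both floors gave 3.54. Of 9 measured genes in the list of myosin heavy and light chains, 5 were at least 2-fold higher, 1 at least 2-fold lower and 2 under 2-fold, and 1, MYH11, was below both floors. The median of the 8 above both floors was 1.36, and the shares over all detected genes were 16.0% higher and 15.4% lower. The other members past 2-fold were the unconventional myosins MYO1C (3.05-fold), MYO10 (2.94-fold) and MYO1E (2.34-fold). With the hybridisation controls set equal MYO1E was at 0.93, under 2-fold.

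**Figure D2:**
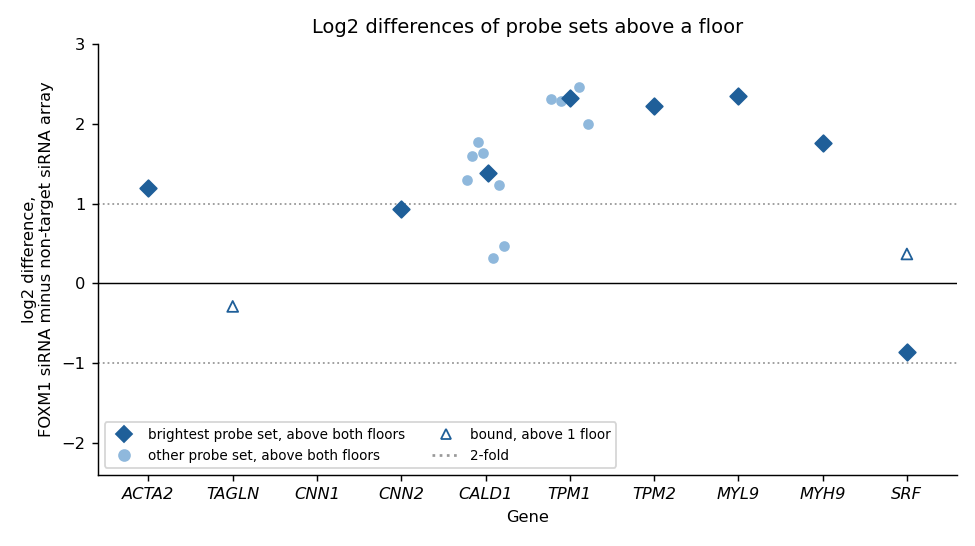
Log2 difference (siFOXM1-labelled array minus control-labelled array) of every probe set of the 10 genes that lies above a floor: diamonds are the brightest probe set of a gene, pale circles its other probe sets above both floors, open triangles bounds from probe sets above 1 floor, and dotted lines 2-fold. The TPM1 points lie together between 1.998 and 2.47, the CALD1 points spread from 0.32 to 1.78, SRF has a diamond at -0.86 and a triangle at 0.37, and CNN1 has no point because its probe set lies below both floors.

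ACTA2, the actin of smooth muscle and of myofibroblasts, read 886 on the control-labelled array and 2032 on the other in probe set 200974_at, 2.29-fold higher. This placed it 1764th from the highest, so that 13.1% of genes with a fold differed by as much or more in that direction. With the hybridisation controls set equal the value was 0.89, under 2-fold. The other ACTA2 probe sets were 215787_at at 2.56 and 18.7 and 243140_at at 12.6 and 11.0, all below the floors. ACTG2, the actin of gut smooth muscle, read 43.7 and 209 and was at least 3.43-fold higher, above the floor on the siFOXM1-labelled array only.

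TAGLN encodes transgelin, an actin-bundling protein that is among the most abundant of smooth muscle, and it is often read as a sign of SRF activity. On these arrays its signals were low. Probe set 205547_s_at read 27.3 and 47.6 and 1555724_s_at 17.6 and 19.8, below the floor on both arrays. The third, 226523_at, read 95.0 on the control-labelled array and 14.7 on the other, which makes it at least 1.22-fold lower against the floor of 77.7. This bound is under 2-fold and rests on 1 of 3 probe sets. CNN1, the calponin of smooth muscle, read 45.04 and 70.2 in its single probe set, below both floors, and has no fold. Apart from the 95.0 of 226523_at, these values lie under the background of their array, which does not show that the genes are silent.

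CNN2, the calponin of non-muscle and smooth muscle cells, read 318 and 608, a log2 difference of 0.93 or 1.91-fold. Its single probe set, 201605_x_at, is of a kind that can cross-react with related sequences. CNN3, the third calponin, read 6307 and 2104 and was lower by more than 2-fold, with its 2 probe sets at -1.58 and -1.70. The calponins on these arrays therefore held a gene below background, a gene under 2-fold and a gene lower by more than 2-fold, whereas all measured tropomyosins were higher.

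SRF itself was not higher in its bright probe set. That probe set, 202401_s_at, read 554 on the control-labelled array and 306 on the other, a log2 difference of -0.86 or 1.81-fold lower. The other, 202400_s_at, read 57.7 and 78.5 and passed the floor on the siFOXM1-labelled array by less than 1 unit, giving a bound of at least 1.29-fold higher. This bound, 0.37 on the log2 scale, lies close to the 0.35 between the 2 floors, so it gives no firm direction. The median of both values, -0.24, includes that bound. With the hybridisation controls set equal the brighter probe set gave -1.16, past 2-fold. SRF ranked 2589th from the lowest of 13449, with 19.3% of genes as low or lower.

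The genes for the partners of SRF were taken as a list of cofactors and regulators. All 9 had a probe set, 7 were above both floors, 2 were at least 2-fold higher and none at least 2-fold lower (median 0.56). Among all detected genes these shares were 16.0% and 15.4%, so the count of cofactors stands near the background. The myocardin-related genes gave -0.12 for MRTFA and 0.56 for MRTFB, and MYOCD, the myocardin of heart and smooth muscle, read 29.5 and 67.5, below both floors. Of the ternary complex factor genes, ELK3 was 3.68-fold higher (1505 and 5534), while ELK1 gave 0.56 and ELK4 -0.07. ELK4 changed sign between scalings, with values from -0.37 to 0.05 over the 5 tried. FHL2, a LIM domain cofactor that is itself an SRF target, was 5.84-fold higher (1776 and 10378). HOPX, a homeodomain protein that restrains SRF, gave 0.51, and ABRA, an actin-binding protein of muscle, read 35.6 and 26.5, below both floors.

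Among other smooth muscle genes, 22 of 24 had a probe set of their own, of which 7 were at least 2-fold higher, 3 at least 2-fold lower, 6 under 2-fold and 6 below both floors. Over all detected genes 16.0% were higher and 15.4% lower, so the share of lower members lies near the background. The 12 above both floors had a median of 0.45. Those at least 2-fold higher and above both floors were CSRP1, a LIM protein of actin filaments, at 17.1-fold (208 and 3556), TGFB1I1, a focal adhesion protein, at 10.5-fold, MYLK and TPM4, as above, and SMTN, smoothelin, at 2.68-fold. DES, the muscle intermediate filament gene, was at least 2.86-fold higher (58.3 and 174). With a floor 2 times as high the bounds of DES and ACTG2 fell under 2-fold, and 5 genes of the list were higher. The 3 lower members were CSRP2 (13634 and 3887, 3.51-fold), CNN3 and PPP1R14A, an inhibitor of myosin phosphatase, which read 382 and 9.63 and was at least 4.91-fold lower. CSRP1 and CSRP2, close paralogues, thus differed in opposite directions, as MYH9 and MYH10 did, and both directions held under all 5 scalings. These pairs were picked out after their values were seen.

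The list of cytoskeletal SRF targets holds actin, proteins that anchor it at adhesions, and other genes. Among the others are CAPG, AHNAK, MYL12A and MYL12B. Of 16 measured, all above both floors, 8 were at least 2-fold higher and none at least 2-fold lower, with a median of 1.21, beside 16.0% higher and 15.4% lower among all detected genes. PXN, the focal adhesion adaptor paxillin, was 16.8-fold higher (81.6 and 1369), the actin-capping gene CAPG 14.6-fold, the membrane scaffold gene AHNAK 8.65-fold and MYL12A 6.40-fold, followed by FHL2, as above. The lower PXN signal lies only a little above its floor of 60.8. The alpha-actinin genes ACTN1 and ACTN4 gave 1.86 and 1.59. ACTB, VCL and ZYX gave 0.79, 0.86 and 0.91, each under 2-fold. The probe sets named for ACTG1 also name ACTB, and ACTG1, FLNA, FHL1 and WDR1 are not analysed here.

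The list of immediate early targets holds classical members such as FOS and EGR1, which are known to depend more on the ELK partners, and other genes. Which partner acts on a listed gene was not tested. Of 10 detected, 3 were at least 2-fold higher and none at least 2-fold lower, with a median of 0.73, beside 16.0% and 15.4% of all detected genes. CCN2 and CCN1, matricellular proteins that are also targets of YAP, were 6.14-fold and 3.37-fold higher, and EGR3 was 2.16-fold higher from signals near the floor (71.2 and 154). With the hybridisation controls set equal EGR3 was at 0.81, and with a common floor, a floor 2 times as high or a pseudocount of 50 it also lost 2-fold, leaving 2 higher genes in the list. FOS, EGR1 and JUNB, the classical members, gave 0.53, 0.45 and 0.46, all under 2-fold. The lists share FHL2, MYH11, MYL6, MYL12A and MYL12B and are not independent of each other.

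**Figure D3:**
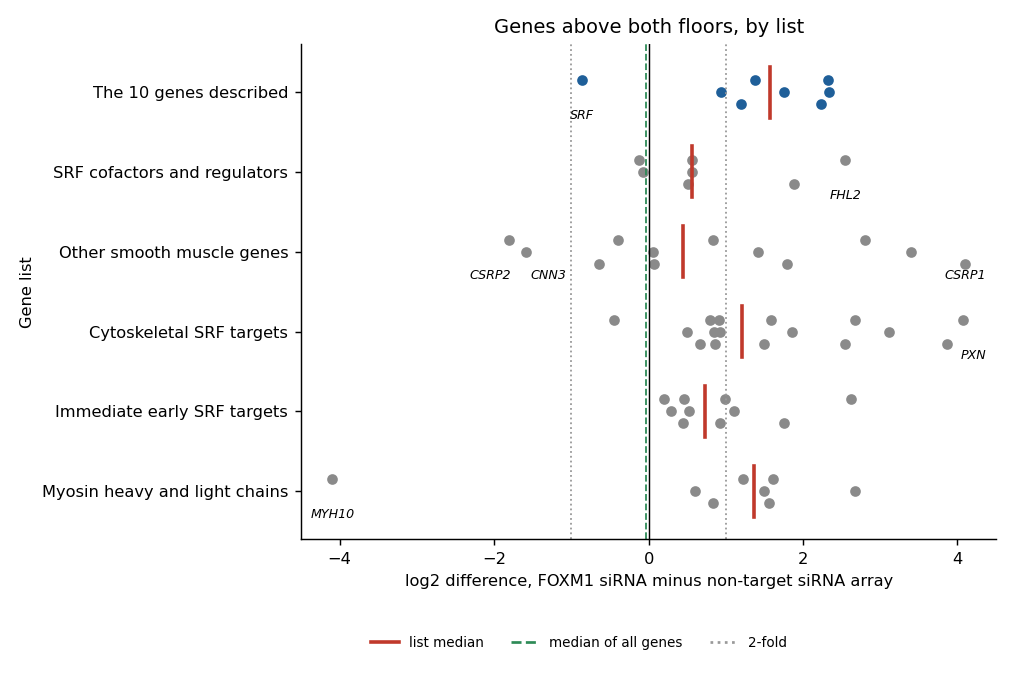
Log2 difference (siFOXM1-labelled array minus control-labelled array) of genes above both floors, 1 point per gene, for 8 of the 10 genes described and for 5 lists of related genes; red bars are list medians, the green dashed line is the median of all genes at -0.03, and dotted lines mark 2-fold. The median is 1.57 for the genes described, 1.21 for the cytoskeletal targets and 0.73 for the immediate early targets, and MYH10 lies apart at -4.09.

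Markers of other cell types differed between the arrays as well, and in bulk RNA more cells of a type and more RNA per cell cannot be told apart. Over all 19775 genes with a probe set, 11395 were above both floors and 2470 above 1 floor only. Passing 1 floor was therefore common, and the marker counts and sums below are descriptions. Of 10 smooth muscle and pericyte markers, 4 were above the floor on the control-labelled array and 8 on the other, and their summed signal was 1261 and 3087. MYH11 and LMOD1, 2 of the defining ones, were below both floors. The markers MYH11, ACTG2, DES, LMOD1 and KCNMB1 were also in the list of other smooth muscle genes, so the 2 counts overlap. MCAM (309 and 1149) and CSPG4 (77.8 and 656) read higher on the siFOXM1-labelled array, whereas RGS5 (459 and 283) alone read lower. KCNMB1, at 79.5 on the siFOXM1-labelled array, lay close to the floor of 77.7. Of 6 fibroblast markers, 4 and 5 were above the floors and the summed signal was 1593 and 13964, led by COL1A1 (1119 and 11394), with THY1 below both floors. The 5 epithelial markers went the other way in sum, 3055 and 768, of which KRT18 (2655 and 380) made up most. CDH1 (113 and 20.9) also read lower, above the floor on the control-labelled array only, as did KRT19 (19.6 and 4.13), below both floors. KRT8 (220 and 265) and EPCAM (48.1 and 98.8) read higher on the siFOXM1-labelled array. Of 8 astrocyte and glioma markers, 4 and 5 were above the floors and the summed signal was 22538 and 41941, nearly all from VIM. GFAP and AQP4, which define astrocytes, were below both floors, and of this list only VIM, SLC1A3 and OLIG2 were above both. NES (54.0 and 261) was at least 4.29-fold higher, above the floor on the siFOXM1-labelled array only. S100B (87.8 and 2.21) read lower, above the floor on the control-labelled array only. Of 4 endothelial markers, 1 and 2 were above the floors, with a summed signal of 98.8 and 304. Of 5 skeletal muscle markers, 2 and 1 were above, with a summed signal of 906 and 2679, mostly from TNNT1 (739 and 2564), while MYOD1 and MYOG were below both floors. Both measured leukocyte markers were below both floors. The part of these markers in the differences of the contractile genes was not tested.

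**Figure D4:**
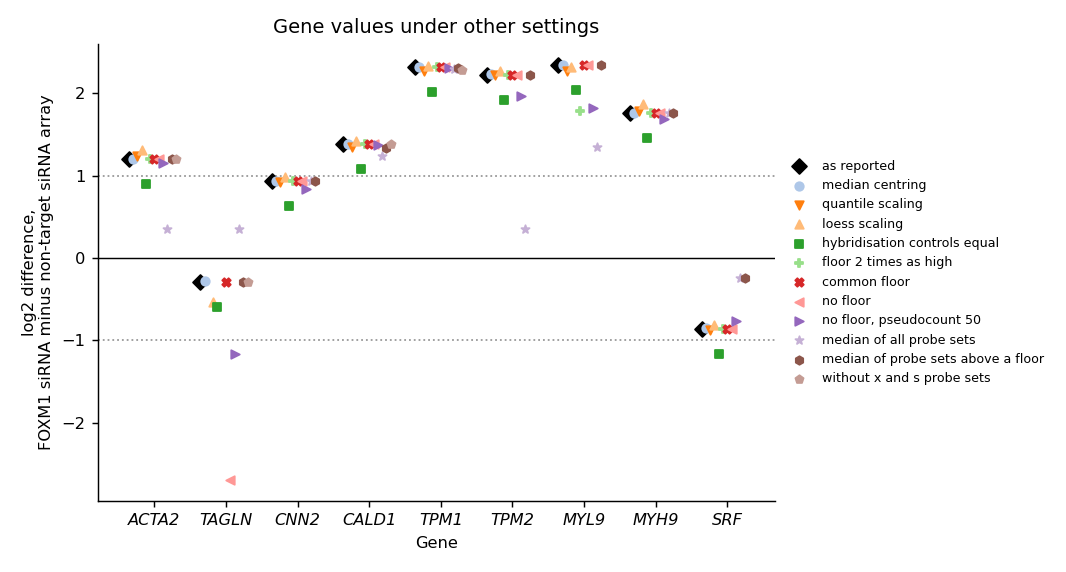
Log2 difference (siFOXM1-labelled array minus control-labelled array) of 9 of the genes as reported (black diamonds) and under each alternative scaling, floor and choice of probe set (other symbols), with dotted lines at 2-fold. TPM1 stays between 2.02 and 2.33, ACTA2 and TPM2 drop to 0.35 only with the median of all probe sets, and TAGLN spreads from -2.70 to 0.35.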

How the data were processed

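Total RNA of 2 samples was hybridised to 1 Affymetrix 3′ array each. The deposited values are linear signal intensities for 54675 probe sets, made by the authors with MAS5 per the submitters' processing notes; its version is not given in the sources used here. Both arrays had the same trimmed mean of 500.07 (2% left out per end) and so a common scale, which makes each difference relative to the whole array. The depth of an array has no count; the number of arrays limits the precision. Of the probe sets, 41097 had 1 gene symbol, 1801 several and 11777 none in the platform table; symbols were updated through the gene ID (99.9%). Signals were raised to the floor of their array and log2 differences taken. For a gene above 1 floor only, a fold is a bound, and 416 bounds that pointed the wrong way got none. The threshold was 2-fold. All 10 genes are named, all SRF cofactors, and up to 5 members of each other list per direction past 2-fold and above both floors; the further genes were named after their values were seen. The members and the lists were chosen with earlier results of these data known. The calculation was tested on simulated data. The alternatives tried were quantile and loess scaling (limma 3.58.1, R 4.3.3, span 0.3), median centring, equal hybridisation controls (18 probe sets), other floors, a pseudocount of 50, other choices of probe set and a 1.5-fold threshold. The median of probe sets above a floor was added after seeing the data. Other steps used Python 3.11.15, numpy 2.4.6 and pandas 2.3.3. A comparison of protein sequences was planned and was not analysed here, and 1 planned gene list is not reported here.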

Additional observations from a re-analysis of the deposited data

How the results depend on the processing

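All differences rest on 1 array per group and have no replicate check. No paired analysis was possible because each group holds 1 sample. TPM1 and CALD1 stayed at least 2-fold higher under every alternative. MYL9 and MYH9 did so under every alternative except leaving out _x_at and _s_at probe sets. MYL9 was then left with 244149_at, which lies below both floors, and MYH9 with no probe set. With the hybridisation controls equal, whose median log2 difference was 0.30, the median over all genes above both floors went from -0.03 to -0.34, and 1 of the 10 genes (SRF) was at least 2-fold lower; over all genes 1567 were higher and 3200 lower, against 2218 and 2132. Without a floor, alone or with a pseudocount of 50, 1 (TAGLN) was lower, and without a floor 4593 genes were higher and 3799 lower. Leaving out _x_at and _s_at probe sets left 3 of the 10 at least 2-fold higher (ACTA2, TPM1 and CALD1), since MYL9, TPM2, MYH9, CNN2 and SRF had no other probe set above a floor. It also left 1 SRF cofactor higher and moved the medians of other smooth muscle genes to 1.42 and of cytoskeletal targets to 1.86; a floor 2 times as high also gave 1.42 for the former. With the median of all probe sets 4 of the 10 were higher, because ACTA2 and TPM2 then take the value of a probe set below both floors, 0.35, which is the ratio of the floors. At 1.5-fold 1 of the 10 was lower (SRF), 14 cytoskeletal and 5 immediate early genes were higher, and over all genes 3623 were higher and 3714 lower.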
